A study of Mus musculus with 5 samples.

Results

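The genes described here are 10 genes of the contractile and mesenchymal cytoskeleton, chosen by symbol from the 17923 genes listed in at least 1 library. They are the smooth muscle actins Acta2 and Actg2, the myosin regulatory light chain Myl9, the actin-binding genes Tagln, Cnn1, Cald1 and Tpm2, the intermediate filament genes Vim and Des, and S100a4. All 10 were listed in the files, each with 1 RefSeq transcript. Smooth muscle cells and myofibroblasts pull by sliding actin on myosin, and calponin, caldesmon and tropomyosin set how far myosin can act on the filament. When actin monomer is used up, the cofactors of serum response factor (SRF) enter the nucleus and switch on many of these genes. Epithelial cells that lose their junctions often replace keratin filaments by vimentin, so the group is widely read as a sign of a mesenchymal state.

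RNA was sequenced from mouse thyroid tumor cell lines that all carry BrafV600E, the activating mutation of papillary thyroid cancer. The 2 BVE-Ctnnb1wt libraries have an intact Ctnnb1, come from 1 line name at passage 20, and differ in TSH, which is absent from the medium of replicate 1 and present in that of replicate 2. The 3 BVE-Ctnnb1null libraries, labelled as deleted for CTNNB1, carry 3 line names, with replicate 1 at passage 8 and without TSH, replicate 2 at passage 11 and replicate 3 at passage 7, for which TSH is not stated. The growth text of the labels instead gives medium with TSH and about 25 passages for wt and 20 for null cells, and names no promoter or Cre. The libraries are called wt 1 and wt 2, and null 1, null 2 and null 3, after their replicate numbers. Genotype, line and passage cannot be told apart, and p-values measure the spread between these libraries.

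Estimated counts per library added up to between 29360002 and 30713079. Levels are given in FPKM, which is scaled to transcript length and library total, and so can be compared between genes. Ratios between libraries use CPM, counts scaled to the library total, after TMM scaling (TMM CPM), which corrects for a few genes taking many reads. At these depths 3 counts, the most that a count of 0 allows, were 0.0924 TMM CPM in null 1. This limit covers counting error only.

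Ctnnb1, the gene named as deleted, had an FPKM of 59.3 and 73.8 in wt 1 and wt 2, and of 124.6, 196.3 and 117.8 in null 1, null 2 and null 3. Its RNA was thus not lower in the libraries labelled null, against what that label says. In FPKM they lay above both wt libraries, while in TMM CPM the groups overlapped, and the log2 fold change was 0.55 with a standard error of 0.44 (Benjamini-Hochberg adjusted p = 0.516, edgeR's quasi-likelihood test). Values per transcript do not show single exons, so RNA from a deleted allele would be counted too. The labelled cell type was thyroid epithelium. Of 13 thyroid follicular markers, Foxe1, Slc26a4, Duoxa2 and Iyd were among those that had 3 counts or fewer in every library, and Tg, the thyroglobulin gene, stayed at or below an FPKM of 0.86. The thyroid factor Nkx2-1 was at 9.21, 15.02, 9.26, 34.8 and 0.26 FPKM in wt 1 and wt 2 and null 1, null 2 and null 3. Null 3 thus had the lowest Nkx2-1. Of the 5 thyroid markers tested, Pax8 was higher in null at an unadjusted p under 0.05 (adjusted p = 0.179 in edgeR and 7.69e-05 in DESeq2), and 0 were lower. After adjustment, DESeq2 called 8.43% of all genes higher in null and 3.68% lower. Among all genes tested in edgeR, 12.5% were higher and 6.08% lower at an unadjusted p under 0.05. In lists of skeletal and cardiac muscle, endothelial and leukocyte markers, 0 of 3, 0 of 1 and 0 of 4 tested had such a p.

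The libraries labelled BVE-Ctnnb1null did not share a profile of these genes. Null 1 had almost no Acta2, Tagln or Myl9 and little Vim, null 2 was rich in Vim and S100a4, and null 3 held the highest Acta2, Tagln, Cnn1, Myl9 and Actg2 of the 5 libraries. In the comparison of all null with all wt libraries, 0 of the 10 genes passed an adjusted p of 0.05, against 0% of the 13217 genes tested in either direction (quasi-likelihood test of edgeR, p-values adjusted by Benjamini-Hochberg). At an unadjusted p under 0.05, 0 of the 10 passed, against 12.5% of all genes higher and 6.08% lower. DESeq2 called 0 of the 9 members to which it gave an adjusted p (Cnn1 got none), against 8.43% of genes called higher and 3.68% lower. At an unadjusted p under 0.05 it had 1 member, Tagln, on the higher side, against 16.4% of genes higher and 8.5% lower. Exact two-sided permutation tests of the FPKM gave p between 0.2 and 1.0 for the members, where 0.1 is the smallest p that 2 against 3 libraries allow. Over all alternatives tried, the lowest adjusted p of any member was 0.0992, for Tagln in edgeR without null 1. With limma on log2(FPKM + 0.1), 0 were called and 0 had an unadjusted p under 0.05, against 0.00841% of genes called higher and 0.0421% lower, and 19.1% higher and 2.79% lower unadjusted.

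The fitted log2 fold change, null over wt, was above 0 for 6 members and below 0 for 4, with a median of 0.77 beside 0.29 for all genes tested. The sign of this median depended on the fit, with -0.81 in limma on log2(FPKM + 0.1). The median was -0.40 without null 3 and 0.26 without null 2, each over 9 members. Actg2, which passed the count filter only with both null 2 and null 3 present, was missing from these 9. How far its loss moved the medians was not tested. In TMM CPM, 7 members were lowest in null 1, against 23% of all genes, and 7 were highest in null 3, against 21.4%. Actg2 counts in both, although the libraries where it was high also admitted it to the genes tested. The spread among the null libraries was wider than for most genes. Between the lowest and the highest null library, 9 of the 10 members differed by more than 90% of all genes did, and the median range of all genes was 1.32 on the log2 scale (TMM CPM + 0.5). In bulk RNA, fewer cells that express a gene and less RNA per cell cannot be told apart.

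**Figure D1:**
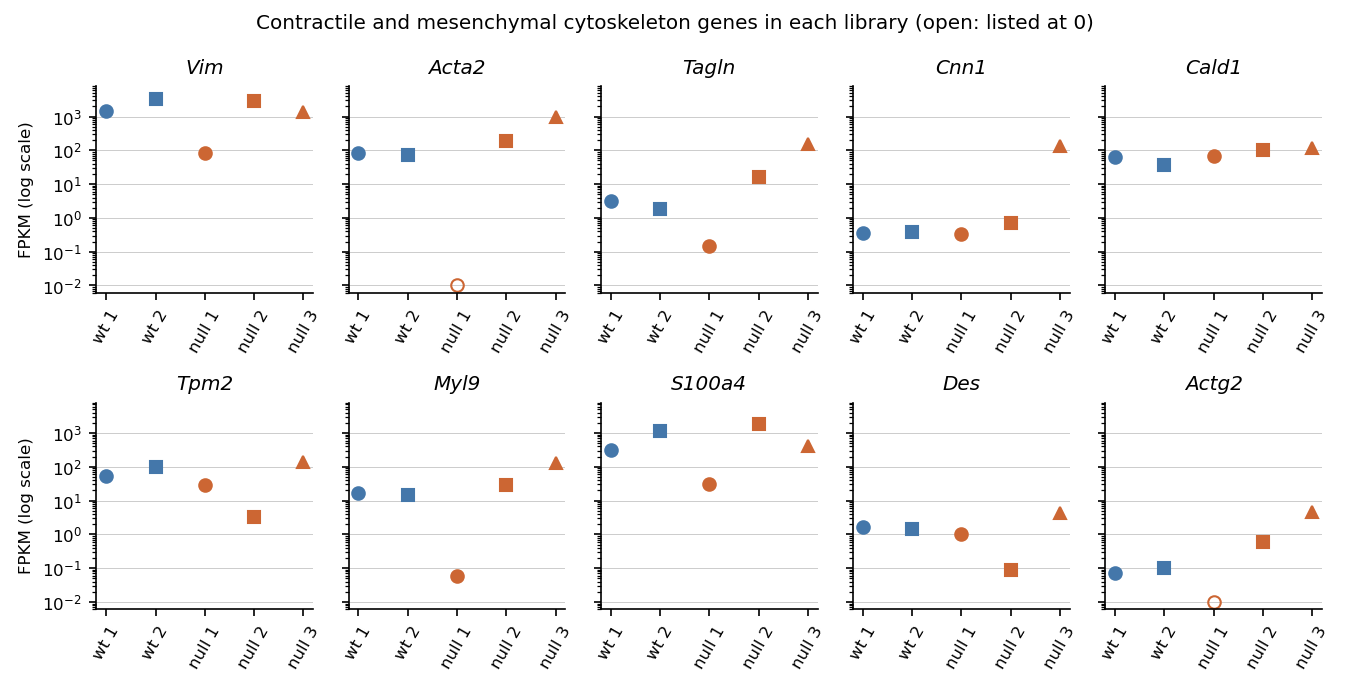
FPKM (log axis) of each of the 10 genes in wt 1 and wt 2 (blue) and null 1, null 2 and null 3 (orange), 1 point per library, with open circles at 0.01 for genes listed at 0. Null 1 is the lowest point for 7 genes, and null 3 is the highest for 8.

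Acta2 encodes the actin of smooth muscle and of myofibroblast stress fibres. Its FPKM was 81.9 and 71.3 in wt 1 and wt 2, 0 in null 1, 191.9 in null 2 and 942.2 in null 3. The null libraries lay on both sides of the wt libraries. Acta2 had 6494 counts in wt 1, 5713 in wt 2 and 0 in null 1, at least 2736-fold lower in TMM CPM than in wt 2 and at least 21759-fold lower than in null 3, counting null 1 at its limit of 3 counts. In null 3 the gene was number 109 in the order of FPKM. Over the groups, the log2 fold change of 1.67 was smaller than its standard error of 2.42 (Benjamini-Hochberg adjusted p = 0.730, edgeR's quasi-likelihood test). It became -0.32 without null 3 and 2.21 without null 1.

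Myl9, the regulatory light chain through which phosphorylation starts contraction, followed the same order. Its FPKM was 16.4 in wt 1, 14.4 in wt 2, 0.06 in null 1, 28.7 in null 2 and 134.1 in null 3. With 2 counts in null 1, its TMM CPM in null 3 was 1918 times higher (95% exact interval 531 to 15841, counting error only). The wt libraries were close to each other and lay between the null libraries. On the log2 scale the fold change was 1.19 with a standard error of 1.86 (adjusted p = 0.754 from the same edgeR test), and -0.74 without null 3.

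Actg2, the enteric smooth muscle actin, was barely present. Its FPKM was 0.07 in wt 1, 0.10 in wt 2, 0 in null 1, 0.59 in null 2 and 4.53 in null 3, on 3, 4, 0, 23 and 178 counts. Null 2 and null 3 lay above the wt libraries. Null 1 was listed lowest, but its limit of 3 counts reaches the count of wt 1, so its place beside the wt libraries is not settled. Against null 3, null 1 was at least 53.9-fold lower in TMM CPM. The log2 fold change was 3.64 with a standard error of 2.21 (adjusted p = 0.404 from the same edgeR test). Actg2 passed the count filter only through null 2 and null 3, where it was high, so no group difference is read from this value. The actins are alike in their coding sequence, so reads of one might be counted for another. Null 1 had 97183 counts of the cytoplasmic actin Actb and 110443 of Actg1, and 0 of Acta2 and Actg2. The FPKM of Actg2 was 0.0855% and 0.140% of that of Acta2 in the wt libraries, 0.308% in null 2 and 0.481% in null 3, and the part of shared reads in these values was not tested.

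Promoters of Acta2, Myl9 and Cnn1 are shown because these genes had their highest level in null 3 and were listed lowest in null 1. For Cnn1 the counts of null 1 and wt were too close to place null 1 below wt. The CArG box is the motif that SRF binds. The windows run from 250 bases before to 50 bases after the annotated start (RefSeq, GRCm38.p6), and the table had 9 windows for 8 of the 10 members, none for Tagln or Actg2. Capitals mark a CArG box, allowing at most 1 G or C in its A/T core. The lines give Acta2 at chr19:34255324-34255623 (minus strand), Myl9 at chr2:156775214-156775513 (plus strand) and Cnn1 at chr9:22099003-22099302 (plus strand), each 5′ to 3′ on the strand of the gene.
Acta2: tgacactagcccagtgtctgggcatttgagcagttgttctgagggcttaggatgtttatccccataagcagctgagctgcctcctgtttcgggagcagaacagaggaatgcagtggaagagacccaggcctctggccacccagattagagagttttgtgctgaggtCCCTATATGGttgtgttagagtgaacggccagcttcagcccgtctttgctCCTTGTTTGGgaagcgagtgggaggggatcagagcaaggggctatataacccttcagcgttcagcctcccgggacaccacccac
Myl9: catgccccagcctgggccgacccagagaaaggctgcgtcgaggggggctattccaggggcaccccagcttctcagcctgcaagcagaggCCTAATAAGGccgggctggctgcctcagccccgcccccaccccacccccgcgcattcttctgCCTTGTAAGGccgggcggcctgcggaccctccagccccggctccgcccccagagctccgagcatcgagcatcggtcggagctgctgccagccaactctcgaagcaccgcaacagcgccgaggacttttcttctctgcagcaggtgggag
Cnn1: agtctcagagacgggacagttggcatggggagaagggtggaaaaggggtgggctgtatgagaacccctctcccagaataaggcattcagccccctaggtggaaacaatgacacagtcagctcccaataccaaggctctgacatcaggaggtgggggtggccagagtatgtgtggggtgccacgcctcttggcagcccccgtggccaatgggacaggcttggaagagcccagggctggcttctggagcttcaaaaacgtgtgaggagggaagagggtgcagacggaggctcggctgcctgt
A CArG box without such a change was in 1.63% of all 32851 windows, and among the members' windows in that of Myl9 alone. With the change allowed, the share was 9.98% of all windows, and the members were Myl9 and Acta2, with 2 matches each. The matches start 161 and 99 bases before the annotated start in Myl9, and 84 and 34 bases before it in Acta2. The search covers both strands, since the motif reads alike on each. The letters CATTCC, bound by TEAD factors, were found on either strand in 14.7% of all windows and in those of Acta2 and Cald1. A match is a stretch of letters and not a measured site, and the Cnn1 window, without one, says nothing of sites elsewhere.

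Tagln encodes transgelin, which bundles actin and is used as an early marker of smooth muscle. Its FPKM was 3.26 in wt 1, 1.79 in wt 2, 0.15 in null 1, 16.7 in null 2 and 157.3 in null 3. Null 1, on 7 counts, was the lowest and null 3 the highest, 952 times higher in TMM CPM, with both wt libraries between them. Tagln had a log2 fold change of 3.91 with a standard error of 2.16 (Benjamini-Hochberg adjusted p = 0.365, edgeR's quasi-likelihood test). Without null 3 it was 1.11. The gene overlaps Pcsk7 in the annotation, and counting by strand is not stated. Pcsk7 was between 4.10 and 7.14 FPKM in all 5 libraries.

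Cnn1, the smooth muscle calponin, was high in 1 library. Its FPKM was 0.36 in wt 1, 0.37 in wt 2, 0.34 in null 1, 0.70 in null 2 and 137.7 in null 3. Null 3 had 8084 counts, and the other 4 libraries had between 20 and 41. The fitted log2 fold change of 6.33 had a standard error of 2.81 (adjusted p = 0.286 from the same edgeR test), the lowest adjusted p of the 10 members. Without null 3 it was -0.13.

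Cald1 encodes caldesmon, which binds actin and holds back myosin, and was the most even of the members. Its FPKM was 64.2 in wt 1, 37.3 in wt 2 and 68.7, 99.9 and 120.5 in null 1, null 2 and null 3. In FPKM every null library lay above both wt libraries, which held for 35.9% of all genes tested (7.23% had every null library below). No other member had this. In TMM CPM the groups overlapped, with 258.7 in null 1 and 312.7 in wt 1. The range of Cald1 among the null libraries was 0.65 on the log2 scale, below that of most genes. On the log2 scale the fold change was 0.35 with a standard error of 0.44 (adjusted p = 0.681 from the same edgeR test). Both caldesmon forms, the long one of smooth muscle and the short one of other cells, come from this gene, and the files list a single transcript for it, so they cannot be told apart.

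Tpm2 encodes a tropomyosin that lies along the actin filament. Its FPKM was 52.5 in wt 1, 95.5 in wt 2, 28.9 in null 1, 3.28 in null 2 and 134.8 in null 3. Here null 2 was the lowest, 41.3 times below null 3 in TMM CPM, although it was above the wt libraries for Acta2 and Tagln. In TMM CPM wt 2, at 275.2, was above null 3, at 233.8. The log2 fold change was -1.05 with a standard error of 1.22 (adjusted p = 0.660 from the same edgeR test). Tpm2 overlaps Car9 in the annotation, whose FPKM was 17.9 in wt 1, 39.0 in wt 2 and from 0.14 to 0.47 in the null lines, and the part of shared reads was not tested.

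Vim encodes vimentin, the intermediate filament of mesenchymal cells, and was the most abundant member in every library. Its FPKM was 1478 in wt 1, 3406 in wt 2, 85.1 in null 1, 2864 in null 2 and 1401 in null 3. Null 2 and null 3 were of the order of the wt libraries, and null 1 was 29.9 times below null 2 in TMM CPM. In the order of FPKM, Vim was number 24 in null 2 and number 1067 in null 1. On the log2 scale the fold change was -1.43 with a standard error of 1.13 (Benjamini-Hochberg adjusted p = 0.512, edgeR's quasi-likelihood test), and -0.90 without null 1.

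S100a4 encodes a calcium-binding protein that acts on myosin filaments and is used as a fibroblast marker. Its FPKM was 321.5 in wt 1, 1147 in wt 2, 30.7 in null 1, 1791 in null 2 and 415.8 in null 3. As for Vim, null 1 was the lowest and null 2 the highest null library, 51.8 times higher in TMM CPM. The log2 fold change was -0.67 with a standard error of 1.33 (adjusted p = 0.806 from the same edgeR test). It was 0.58 without wt 2 and -2.47 without null 2.

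Des encodes desmin, the intermediate filament of muscle, and was low throughout. Its FPKM was 1.65 in wt 1, 1.47 in wt 2, 1.03 in null 1, 0.09 in null 2 and 4.24 in null 3. Null 2 had 6 counts and null 3 had 271, with the other libraries between them. On the log2 scale the fold change was -0.41 with a standard error of 1.30 (adjusted p = 0.885 from the same edgeR test), and -2.04 without null 3.

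**Figure D2:**
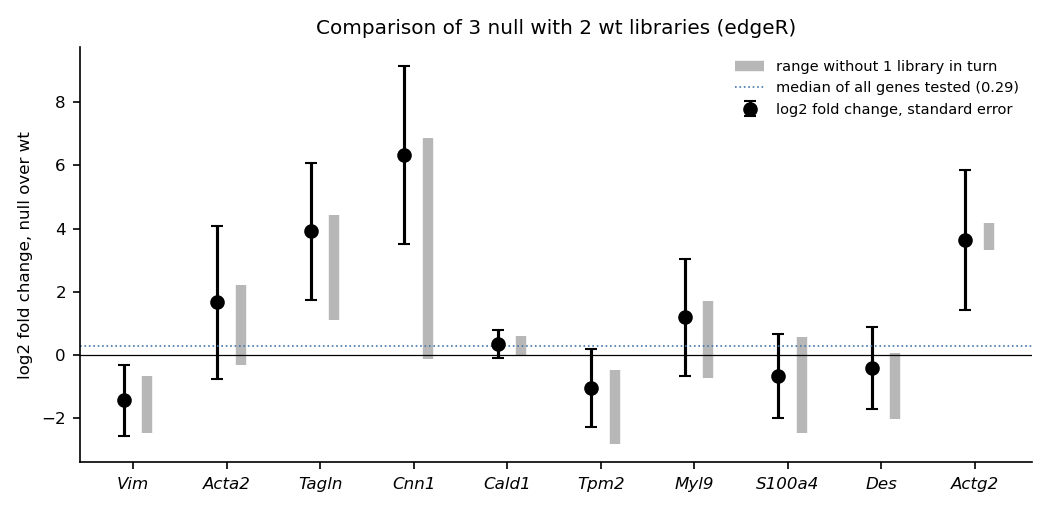
Log2 fold change of null over wt libraries for each gene (black points, bars are the standard error, edgeR on 3 null and 2 wt libraries) with the range when each library was left out in turn (grey). The dotted line is the median of all genes tested, 0.29. The grey ranges of Acta2, Cnn1, Myl9, S100a4 and Des cross 0, and Actg2 was not tested without null 2 or null 3.

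Taken library by library, each null line was set beside the mean of the wt libraries on log2(TMM CPM + 0.5). The lines share these wt libraries, have 1 library each and were not tested. Null 1 was at least 4-fold below the wt mean for 5 members (Vim, Acta2, Tagln, Myl9 and S100a4) and at least 4-fold above it for 0. Among all genes tested, 5.56% were that far below and 10.4% that far above. The median over the members was -2.34, beside 0.12 for all genes.

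Null 2 was at least 4-fold above the wt mean for Tagln alone (8.29% of all genes) and at least 4-fold below for Tpm2 and Des (4.71%). Its median over the members was 0.32, beside 0.04 for all genes. Null 3 was at least 4-fold above for Acta2, Tagln, Cnn1, Myl9 and Actg2 (8.96%) and below for 0 members (4.25%), with a median of 1.60 beside 0.14. Actg2 passed the count filter only through null 2 and null 3, so its height in null 3 is not read as a result. The largest difference in null 3 was that of Cnn1, 7.30 on the log2 scale, and Vim and S100a4 were at -1.31 and -1.18. Acta2, Tagln, Cnn1, Myl9 and Actg2 had null 1 as the lowest and null 3 as the highest of the 5 libraries, an order found in 6.79% of all genes tested. For Actg2 (0 counts in null 1, 3 in wt 1 and 4 in wt 2) and Cnn1 (20, 22 and 23), these counts are too close to place null 1 below wt.

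**Figure D3:**
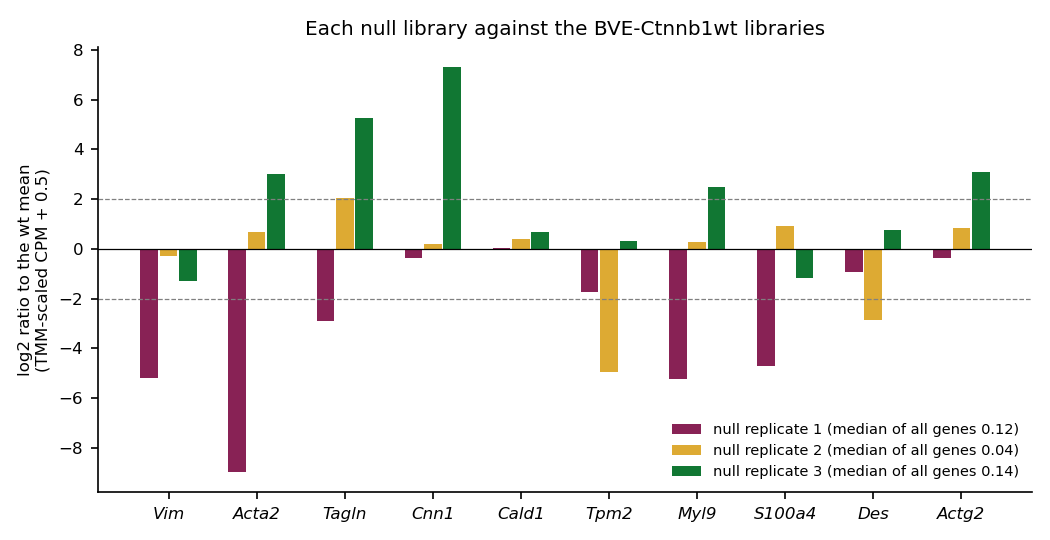
Log2 ratio of each null library to the mean of the wt libraries (TMM CPM + 0.5) for the 10 genes, with dashed lines at a 4-fold difference and the median of all genes in the legend. For Acta2 the bars run from -8.99 in null 1, where the gene had 0 counts and the ratio rests on the added 0.5, to 2.99 in null 3.

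The wt libraries differ in TSH by their labels. S100a4 was 4.09 times and Vim 2.64 times higher in TMM CPM in wt 2 than in wt 1, and Tpm2 was 2.09 times higher. Of all genes tested, 4.91% were at least 2-fold higher and 5.05% at least 2-fold lower in wt 2. For Acta2, Myl9 and Des the ratio was between 0.999 and 1.02. It was 0.63 for Tagln, 0.67 for Cald1, 1.19 for Cnn1 and 1.51 for Actg2. The 3 members at least 2-fold apart were thus Vim, S100a4 and Tpm2. With 1 library for each TSH label this difference has no replicate check.

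By distance of the centred log2(TMM CPM + 0.5) over the 5 libraries, the genes closest to Acta2 among 7308 genes were Fstl1, Col1a1, Fbn1, Pdgfrb and Col1a2, at distances between 2.78 and 3.12. Fibrillin, type I collagen and a PDGF receptor are made by fibroblasts and pericytes. Fbn1 and Pdgfrb, like Acta2, were listed at 0 FPKM in null 1. Closest to Vim were Tmem119, Foxf1, Iglon5, S100a4 and Emilin1, at distances between 0.94 and 1.18, so S100a4 was the only other member among them. Foxf1, a transcription factor of the mesenchyme around the gut and lung, had an FPKM of 16.1 in wt 1, 21.3 in wt 2, 0.33 in null 1, 29.4 in null 2 and 18.0 in null 3.

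Other genes of the same machinery and of its control were taken from lists, in each of which 0 genes passed an adjusted p of 0.05 in edgeR. Beside the counts at an unadjusted p under 0.05 in the lists below, the shares of all genes were 12.5% higher and 6.08% lower in edgeR. Of 12 other smooth muscle contractile genes, 9 were tested, 1 (Lmod1) was higher in null at an unadjusted p under 0.05, and the median log2 fold change was -0.51. With 1 library left out this median lay between -0.62 (without null 2) and 0.10 (without wt 1). The list added up to 1825 FPKM in wt 1, 2189 in wt 2, 1002.4 in null 1, 3565 in null 2 and 927.0 in null 3. Null 3, highest for 7 of the members in TMM CPM, was thus the lowest for this sum, most of which was Tpm1. The median ratio of the tested genes of the list to the wt mean was -1.12 in null 3 on the log2 scale. Lmod1, which nucleates actin filaments in smooth muscle, had an FPKM of 0 in wt 1, 0.05 in wt 2, 0.04 in null 1, 4.66 in null 2 and 1.58 in null 3. Its adjusted p was 0.254 in edgeR's quasi-likelihood test and 0.0191 in DESeq2. Lmod1 had 0 and 6 counts in wt 1 and wt 2, and 5, 546 and 186 in null 1, null 2 and null 3. It thus passed the count filter only through null 2 and null 3, where it was high, and no difference is read from these p-values. Myh11, the smooth muscle myosin heavy chain, did not pass 0.03 FPKM in any library.

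Tpm1, a tropomyosin, was the most abundant gene of this list, with an FPKM of 1364 in wt 1, 1841 in wt 2, 588.6 in null 1, 2983 in null 2 and 633.5 in null 3. Unlike Tpm2, it was highest in null 2. Csrp1 was between 168.4 and 433.1 FPKM and Pdlim7 between 72.9 and 158.5. Ppp1r12b, a subunit of the phosphatase that ends contraction, was at 1.08 FPKM in wt 1, 1.12 in wt 2 and from 3.04 to 6.02 in the null lines (adjusted p = 0.270, edgeR's quasi-likelihood test).

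Among 17 actin, calponin, transgelin, tropomyosin and myosin paralogs, 15 were tested, 1 was higher at an unadjusted p under 0.05 and 0 lower, with a median of 0.08, which ran from -0.13 without wt 1 to 0.17 without wt 2. Actc1 and Tagln3 were not listed. The cytoplasmic actins stayed high in every library, with Actg1 between 1717 and 3379 FPKM and Actb between 776.5 and 2547. Null 1, with Acta2 at 0, had 1715 for Actb. Other myosin light chains were listed there at 867.5 FPKM for Myl12b, the highest of the 5 libraries, and at 405.9 for Myl12a and 372.9 for Myl6, each the lowest of the 5. Myh9, the nonmuscle myosin heavy chain, had an FPKM of 39.8 in wt 1, 33.8 in wt 2 and 170.6, 143.5 and 89.1 in null 1, null 2 and null 3 (log2 fold change 1.31, standard error 0.47, adjusted p = 0.231, edgeR's quasi-likelihood test). All 3 null libraries were above both wt libraries, as for 22.6% of all genes in TMM CPM. Myh14, another nonmuscle myosin, was at 77.2 FPKM in null 1 and at or below 2.82 in the other libraries.

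Of 15 regulators of the MRTF and SRF axis, 14 were tested. At an unadjusted p under 0.05, 3 were higher (Mrtfb, Rock1 and Rock2) and 1 lower (Rhob), against 12.5% of all genes higher and 6.08% lower. In edgeR 0 passed adjustment, and the median was 0.69, or 0.36 without null 1 and 0.43 without wt 2. Mrtfb, a cofactor of SRF, had an FPKM of 0.22 in wt 1, 0.43 in wt 2 and of 2.34, 2.10 and 2.43 in null 1, null 2 and null 3. It was even over the 3 null libraries. The fitted log2 difference was 2.43 with a standard error of 0.60 (adjusted p = 0.187, edgeR's quasi-likelihood test, 0.000989 from DESeq2). After adjustment, DESeq2 called 8.43% of all genes higher in null and 3.68% lower. For Mrtfb, Rock1, Rhob and Lmod1 the highest adjusted p over the alternatives was 0.841, and the DESeq2 value was the lowest.

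Rock1, a kinase that acts on myosin light chain phosphorylation, was at 0.03 FPKM in wt 1, 0.04 in wt 2 and from 0.38 to 1.20 in the null lines (adjusted p = 0.190 from edgeR, 0.00270 from DESeq2). At these wt levels, Rock1 may have passed the count filter only through the null libraries, where it was high. No difference is thus read from its p-values. Rhob, a small GTPase, was at 148.3 FPKM in wt 1, 83.9 in wt 2 and from 50.7 to 76.9 in the null lines (adjusted p = 0.204 from edgeR, 0.0367 from DESeq2). The most abundant genes of this list, Cfl1, Rhoc and Rhoa, had groups that overlapped in TMM CPM. Srf itself had an FPKM of 15.6 in wt 1, 11.1 in wt 2 and 12.1, 27.6 and 14.2 in null 1, null 2 and null 3, with overlapping groups. Myocd, the cofactor of SRF that is most restricted to muscle, was not listed in any library.

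All 15 stress fibre and focal adhesion targets of SRF were tested, 0 had an unadjusted p under 0.05 in either direction, and the median was -0.04, or -0.73 without null 2. After Tpm1, the matricellular gene Ccn1 was the most abundant, with 248.4 FPKM in wt 1, 206.1 in wt 2, 186.7 in null 1, 339.8 in null 2 and 611.6 in null 3. Ccn2, of the same family, was at 22.3 in wt 1, 52.5 in wt 2, 147.5 in null 1, 68.3 in null 2 and 178.8 in null 3. Both were highest in null 3, and Ccn2 had the smallest p of the list (0.112 unadjusted, adjusted p = 0.359, edgeR's quasi-likelihood test). Ankrd1, a cardiac ankyrin repeat gene, had the next smallest, with FPKM from 149.8 in wt 2 to 325.5 in wt 1 and the null libraries between them.

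Of 12 other intermediate filament genes, 7 were tested, with 0 at an unadjusted p under 0.05 and a median of -0.16, which ran from -0.40 without null 1 to 0.23 without null 3. Lmna, the A-type lamin, was between 144.7 and 443.1 FPKM. Nes, which encodes nestin, was at 16.9 in wt 1, 15.7 in wt 2, 70.1 and 57.5 in null 1 and null 2, and 7.82 in null 3. The B-type lamin Lmnb1 was also lowest in null 3, at 7.89, and highest in null 2, at 47.4. Sync, whose protein binds desmin, was at 2.05 FPKM in null 2 and at or below 0.44 in the other libraries. Of 14 other S100 genes, 9 were tested, again with 0 at an unadjusted p under 0.05 and a median of 0.29, which ran from -0.25 without null 1 to 0.85 without wt 2. S100a11 and S100a6 were the most abundant and both were highest in null 1, at 5410 and 3845 FPKM, where S100a4 was lowest. S100a10 was lowest in null 1, at 277.7, and highest in null 3, at 1019. S100a13 had the smallest p of the list (0.148 unadjusted, adjusted p = 0.406 in edgeR's quasi-likelihood test), with FPKM from 40.0 in null 2 to 83.8 in null 3. S100a16 had 586.1 FPKM in null 1 and between 43.4 and 106.4 in the other libraries.

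Markers of other cell types also differed between the libraries. Of 14 epithelial markers all were listed, and their summed FPKM was 1112 in wt 1, 1787 in wt 2, 14198 in null 1, 706.2 in null 2 and 1471 in null 3. Null 1, with the least Vim and with Acta2 at 0 counts, had the most. The most abundant was Krt8 in the wt libraries, Krt7 in null 1 and null 3 and Krt18 in null 2. Cdh1, the gene of E-cadherin, was at 135.7 FPKM in null 1, 20.9 in null 3, 1.94 in wt 1 and 1.62 in wt 2. In null 2, Cdh1 and Epcam had 0 counts. All 14 were tested in edgeR, 0 had an unadjusted p under 0.05, and the median log2 fold change was 3.64. Without null 1 this median was 0.58. In DESeq2, Krt7 passed, with an adjusted p of 0.0492, against 0.287 in edgeR. After adjustment, DESeq2 called 8.43% of all genes higher in null and 3.68% lower. The FPKM of Krt7 was 79.65 in wt 1, 124.0 in wt 2, 5131 in null 1, 111.0 in null 2 and 461.3 in null 3. In null 2 it thus lay between the wt libraries. Against the wt mean, 12 of the 14 were at least 4-fold higher and 0 lower in null 1, 0 higher and 7 lower in null 2, and 6 higher and 1 lower in null 3. Among all genes tested, 10.4% were that far above and 5.56% below in null 1. The shares were 8.29% and 4.71% in null 2, and 8.96% and 4.25% in null 3.

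Of 12 fibroblast markers all were listed, and their summed FPKM was 327.9 in wt 1, 294.9 in wt 2, 1.74 in null 1, 186.2 in null 2 and 1492 in null 3. Col1a1 was the most abundant in every library. Null 3, with the highest Acta2, Tagln, Cnn1, Myl9 and Actg2, also had the highest sum of these, with Postn at 101.6 FPKM against 0.13 or less in the other libraries. Col3a1 and Pdgfrb were listed at 0 in null 1 and not in the other libraries. Of the 9 fibroblast markers tested in edgeR, Postn was higher at an unadjusted p under 0.05 and 0 were lower, against 12.5% and 6.08% of all genes. Postn was high in null 3 alone, so no group difference is read from its p-value. The median log2 fold change of the 9 was 0.57. The sign of this median turned to -1.77 without null 3 and to -1.73 in limma on log2(FPKM + 0.1). The part of cell mixture or cell state in these values was not tested.

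Of 10 smooth muscle and pericyte markers, 9 were listed and Mcam led in every library, with a sum of 3.67 FPKM in wt 1, 2.59 in wt 2 and 30.2, 21.1 and 14.5 in null 1, null 2 and null 3. Mcam made up most of the sum in the null 1 and null 2 libraries, with 23.5 and 13.9, and had 7.03 in null 3. Of the 4 tested in edgeR, Lmod1 and Mcam were higher and Kcnj8 lower at an unadjusted p under 0.05, against 12.5% of all genes higher and 6.08% lower. Kcnj8 had 29 and 18 counts in wt 1 and wt 2, and 0, 3 and 2 in null 1, null 2 and null 3. Kcnj8 passed the count filter only through the wt libraries, and Lmod1 only through null 2 and null 3. Each was thus admitted by the libraries where it was high, and no difference is read from their p-values. For Mcam, which was above both wt libraries in every null library, the adjusted p was 0.190 in edgeR and 0.00761 in DESeq2. That order held for 35.9% of all genes tested in FPKM and for 22.6% in TMM CPM. After adjustment, DESeq2 called 8.43% of all genes higher in null and 3.68% lower. Of 12 skeletal and cardiac muscle markers, 8 were listed, Tnnt2 led in every library, and the sum was between 19.2 in null 3 and 102.8 in wt 1. Myog, Myf5, Actc1 and Ttn were not listed, and Pax7 and Myh3 had 3 counts or fewer in every library.

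Of 8 endothelial markers, 7 were listed and their sum was at most 0.80 FPKM, in null 3, where Kdr made up 0.62. Cdh5, Tek, Emcn and Erg had 3 counts or fewer in every library and Cldn5 was not listed. Of 9 leukocyte and macrophage markers, 5 were listed, and Ptprc, Adgre1 and Cd3e were among those that were not. Their sum was 11.4 in wt 1, 21.7 in wt 2 and 124.4, 5.06 and 45.4 in null 1, null 2 and null 3, led by Cd68 or Cd14. Their part in the levels of the members was not tested.

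**Figure D4:**
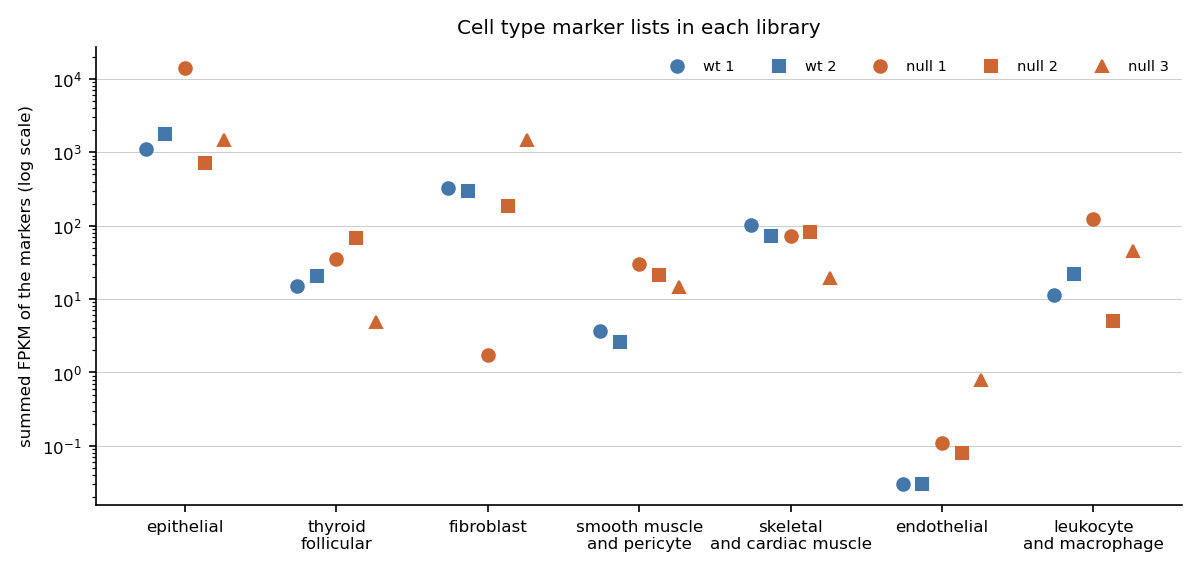
Summed FPKM (log axis) of 7 cell type marker lists in each library, wt in blue and null in orange, with 1 point per library. The epithelial sum is highest in null 1 (14198) and the fibroblast sum is highest in null 3 (1492), with a fibroblast sum of 1.74 in null 1.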

How the data were processed

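RNA of 2 BVE-Ctnnb1wt and 3 BVE-Ctnnb1null samples was made into TruSeq libraries and sequenced. The authors deposited, for each RefSeq transcript and library, an FPKM value and an expected count, which is an estimate and not always a whole number. The lowest listed FPKM was 0.01. Aligner, counting program, strand and build are not given in the sources used here. Values were summed per NCBI gene, counts were rounded, and 17866 of 17923 genes were named from the RefSeq table of GRCm38.p6. Groups follow the sample titles. The main test was edgeR 4.0.16 in R 4.3.3 (TMM, filterByExpr, glmQLFTest, Benjamini-Hochberg adjustment, threshold 0.05) over 13217 genes, including all 10 members. Each member's FPKM was also compared by a two-sided exact permutation test over the 10 splits of 5 libraries, whose smallest p is 0.1 and which cannot reach 0.05. Alternatives were DESeq2 1.42.0, limma 3.58.1 with trend on log2 FPKM, other filters, no TMM, leaving out each library and a replicate block. Promoters are from RefSeq (GRCm38.p6).

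A few markers are not reported here by name. The members and lists were chosen with earlier results of these data known. Named genes were Ctnnb1, the members, from each pathway list the 3 with the highest mean FPKM and the 2 with the smallest p, the leading and lowest markers, and the 5 genes closest to Acta2 and to Vim among those with a mean FPKM of at least 5. Genes shown for other reasons (Nkx2-1, Tg, Pax8, Kcnj8, Cdh1, Epcam, Postn, Pcsk7, Car9, Myh11, Srf, Rhob, Rock2, Myl12a, Myl12b, Myl6) were chosen after their values were seen, for overlap with a member, for a p under 0.05, as defining genes of a list or as near relatives of a member.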

Additional observations from a re-analysis of the deposited data

How the results depend on the processing

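No member passed an adjusted p of 0.05 in edgeR, DESeq2 or limma under the alternatives tried, but the direction of several members changed. Without TMM factors S100a4 was 0.013 and Des 0.18 on the log2 scale. In limma, Acta2 was -1.54 and Myl9 -0.86 on log2(FPKM + 0.1) with or without a filter, -2.65 and -1.25 with 0.01 added, and -0.45 and -0.013 with 1 added. Leaving out each library in turn gave ranges of -0.32 to 2.21 for Acta2, -0.13 to 6.86 for Cnn1, -0.74 to 1.72 for Myl9, -2.47 to 0.58 for S100a4, -2.04 to 0.073 for Des, -2.46 to -0.65 for Vim, 1.11 to 4.44 for Tagln, 0.00 to 0.60 for Cald1 and -2.80 to -0.49 for Tpm2. Actg2 ran from 3.33 to 4.17 and was not tested without null replicate 2 or 3. A lone wt library was assumed to vary like the null group. The cause of these changes was not tested.

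For all genes, the count at an unadjusted p under 0.05 (1646 higher, 803 lower) was 2938 higher and 277 lower without TMM, and the medians of the lists rose with that of all genes (0.29 to 0.87), to 0.66 for paralogs, 1.24 for the MRTF and SRF genes, 0.53 for the stress fibre genes and 0.42 for other intermediate filament genes. DESeq2 called 1114 higher and 487 lower after adjustment. Without the filter 4 genes were called lower, with medians of 0.46 for other smooth muscle contractile genes and 0.41 for other intermediate filament genes. Where every library had to hold 10 counts or more, 1 was called lower, and the paralog median was -0.19. limma called 1 higher and 5 lower (332 lower unadjusted, paralogs 0.65, MRTF and SRF 1.14), 1 and 3 with 0.01 added (315, 0.65, 1.14), 1 and 7 with 1 added (337, 0.42), and without a filter 414 were lower unadjusted (0.65, 1.19). Leaving out a library gave 314 to 2046 higher and 289 to 1465 lower unadjusted, and medians of -0.13 to 0.17 for paralogs, 0.36 to 0.68 for MRTF and SRF genes, -0.73 to -0.027 for stress fibre genes, -1.95 to 0.79 for thyroid markers -0.40 to 1.09 for the members, 0.58 to 4.12 for epithelial markers, -1.77 to 0.84 for fibroblast markers, -0.25 to 0.85 for other S100 genes, -0.40 to 0.23 for other intermediate filament genes and -0.62 to 0.10 for other smooth muscle contractile genes. In limma with 0.01 added the epithelial median was 0.85. For lists with fewer than 5 genes tested no median was given, a limit set after the values were seen. Shares of transcripts could not be given, since each member has 1 transcript.

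The labels tie no wt library to a null library beyond the number, except that replicate 1 of both groups is marked as without TSH. Deviations of same-numbered libraries from their group means had correlations of -0.112 and -0.108. With 2 wt libraries, their deviations are mirror images of each other, so these values cannot settle whether libraries are paired. With a replicate block, 950 genes were higher at an unadjusted p under 0.05, and the median was -2.33 for the members, -0.30 for epithelial and -3.57 for fibroblast markers. Acta2 was -5.27, Tagln -0.94, Cnn1 -0.15, Myl9 -3.43 and Actg2 -0.12. No wt library has replicate number 3, so null 3 was alone in its block and added nothing to the group difference in this fit.

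Depth limits Actg2, Des, Tagln and Cnn1, which had under 50 counts in at least 1 library, and Acta2 and Myl9 in null replicate 1.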
